A study of Mus musculus with 3 samples.

Results

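Genes of axon guidance were read out in the endothelium that lines glomerular capillaries of adult mice, where blood is filtered into urine. The genes were those of the semaphorin, plexin, ephrin, Eph, slit, Robo, netrin, Unc5 and repulsive guidance molecule (RGM) families, with Plxdc1, Plxdc2, Dcc and Neo1. They were taken by gene symbol, with no measured value used. The symbols gave 72 of the 19938 genes measured by probe sets that name a single gene, or 78 of 21789 such probe sets. RefSeq lists 74 symbols of this kind, and Ephb2 and Ntng2 were not analysed here as single genes.

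The glomerular endothelial cells (GEC) came from adult Tie2-GFP mice carrying Tg(TIE2GFP)287Sato on a mixed, primarily CD-1 background, with sex unknown. In these mice the promoter of Tek (Tie2), an endothelial receptor gene, drives green fluorescent protein, and GFP-positive cells were sorted after sieving and trypsin treatment of the glomeruli. The data comprise 3 arrays (replicates 1, 3 and 5) from 1 unpooled kidney each. All form 1 group without a treatment, so the design holds no comparison between groups, and the labels do not say whether the kidneys came from different mice.

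These families were first known from growing axons, and the same signals pattern blood vessels. Semaphorins are secreted or membrane-bound ligands that act through plexins, some of them with a neuropilin as co-receptor. Ephrins and Eph receptors are both held in the cell membrane and signal on contact, in both directions. Slits act through Robo receptors, netrins through Dcc, Neo1 and Unc5 receptors, and RGMs through Neo1. In vessels, the ligand ephrin-B2 is known from arteries, the receptor EphB4 from veins, and PlexinD1 and Robo4 from endothelium in general.

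The question asked of each gene was whether it was measured above a level of 100, the number that the study used as its filter on raw values. On the deposited log2 scale this level is 6.64. A gene was called above or below the level where the moderated test of limma gave an adjusted p under 0.05, and neither otherwise. The values below are log2 signals on replicates 1, 3 and 5 in that order, or means ± SD over the 3 arrays (n = 3). Because probes differ, the level of one gene is not set against that of another, and medians over lists only describe the array. The number of arrays limits the precision, and the p-values rest on the spread among these 3 arrays alone, which may be technical.

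The sorted cells carried the markers of endothelium. All 8 endothelial markers, Tek, Pecam1, Cdh5, Kdr, Flt1, Eng, Emcn and Erg, were called above the level. Of the other marker lists, 4 of 5 podocyte genes were below, as were all 6 measured genes of mesangium and smooth muscle, all 6 of tubule, all 6 of leukocytes and all 5 of neurons and glia. The podocyte gene above was Podxl, at 9.86 ± 0.08, which endothelium also expresses. The summed signal of the endothelial markers was 16091, 10805 and 18088 on replicates 1, 3 and 5, and that of the podocyte list 1025, 1047 and 1119. In each sum the brightest genes weigh most, Emcn (12.54 ± 0.42) among the endothelial markers and Podxl in the podocyte list. In sorted cells measured in bulk, fewer cells with a transcript and less of it per cell cannot be told apart.

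By this test 11 of the 72 guidance genes lay above the level and 55 below it, while 6 were called neither. Over all genes tested, 14.9% were called above, 73.8% below and 11.3% neither, so the families as a whole were divided much like the rest of the array. Their median level was 5.12, against 5.02 over all genes. The 11 genes above were 8 ligand genes (Sema3f, Sema5a, Sema6a, Sema6d, Sema7a, Efnb1, Efnb2 and Ntn4) of 38, and 3 receptor genes (Plxna2, Plxnd1 and Ephb4) of 32. The same 11 had an unadjusted p under 0.05 on that side. Without replicate 1, or without replicate 5, the number above was 7, and in both cases Efnb1, Ephb4, Plxna2 and Sema7a were not called. The share over all genes fell as well, to 12.3% without replicate 1 and 12.4% without replicate 5. Without replicate 3 the number above was 10, with Efna1 gained and Efnb1 and Plxna2 not called, and the share over all genes was 14.6%. Efnb1 and Plxna2 thus lost their call whichever replicate was left out. Plxna2 had the same value on all 3 arrays, so leaving out a replicate changed only its error and not its distance.

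**Figure D1:**
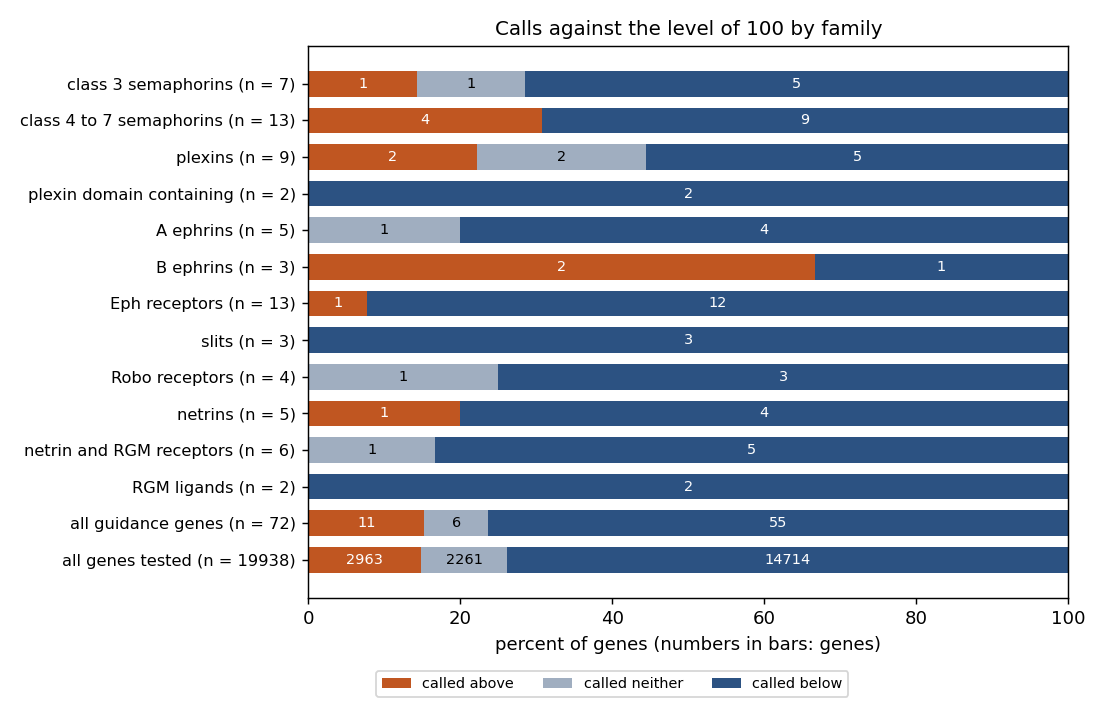
Percent of genes called above, neither or below the level of 100 in each guidance family, in all 72 guidance genes and in all 19938 genes tested (bars add to 100%, numbers in the bars are genes). Among the families with more than 1 gene above are the class 4 to 7 semaphorins, with 4 of 13, and the B ephrins, with 2 of 3.

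Of 20 semaphorin genes, 5 were called above, 14 below and 1 neither. Those above were 4 of the 13 genes of classes 4 to 7 and 1 of the 7 of class 3, and 14.9% of all genes were above. Sema5a, a transmembrane semaphorin with thrombospondin repeats, had 9.36, 9.11 and 9.36, which was 2.63 above the level (95% interval 2.27 to 3.00, adjusted p = 0.000105). All 3 arrays were far above the level, and replicate 3 was lowest. The study itself picked out Sema5a in GEC, for higher expression there than in cortical and medullary endothelium. That is a comparison between compartments, unlike the fixed level used here. The study lists these arrays among its data and may have used them for that choice, and the value is then no independent evidence.

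Of class 6, Sema6a and Sema6d, transmembrane semaphorins that bind A plexins, were above the level. Sema6a had 9.15, 8.90 and 9.27 (2.46 above the level, adjusted p = 0.000146). Sema6d had 9.14, 8.33 and 9.14 (2.23 above, adjusted p = 0.000862). In each, every array was above the level and replicate 3 was lowest. The other 2 genes of the class were called below, Sema6b at 5.94 on each array in both of its probe sets and Sema6c at 4.95.

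The remaining semaphorins above the level were Sema3f and Sema7a. Sema3f, a secreted ligand that signals through neuropilin 2, had 7.69, 7.41 and 7.93 (1.03 above, interval 0.59 to 1.47, adjusted p = 0.00376). Sema7a, which is tethered to the membrane by a lipid anchor, had 7.13, 7.14 and 7.13 (adjusted p = 0.0172). Its distance of 0.49 had an interval of 0.16 to 0.81, so Sema7a lay close to the level although its arrays hardly differed.

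**Figure D2:**
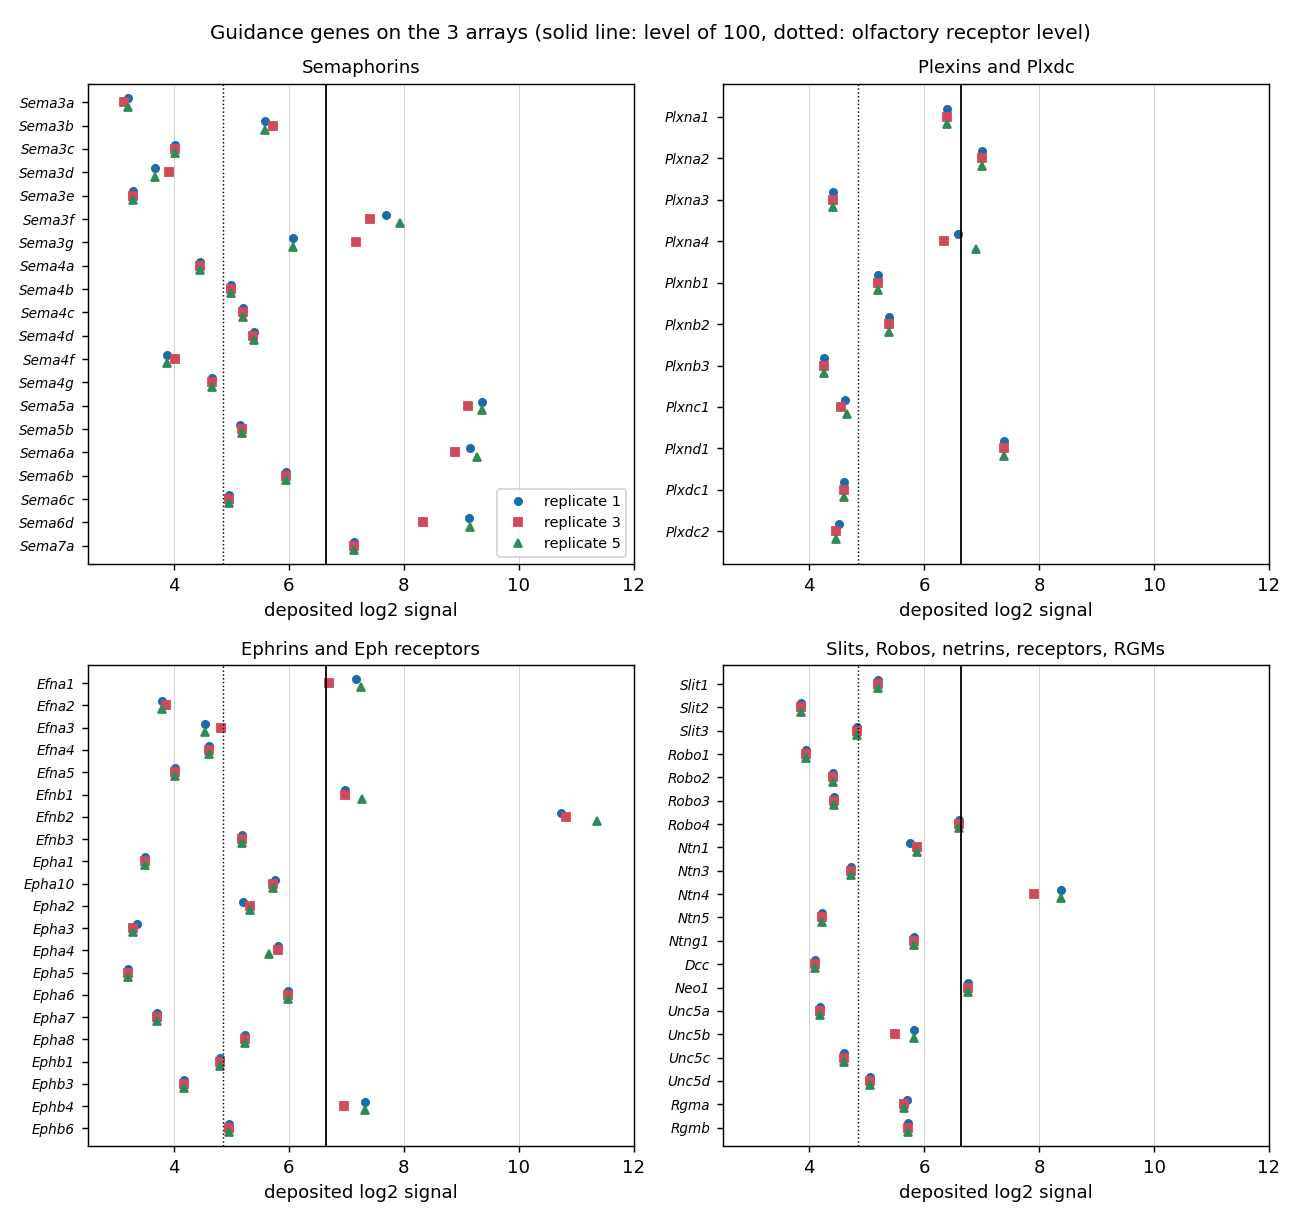
Deposited log2 signal of each of the 72 guidance genes (rows) on replicates 1, 3 and 5 (circles, squares and triangles), by the probe set with the highest mean. The solid line is the level of 100 (6.64) and the dotted line the olfactory receptor level (4.85); Efnb2 lies at 10.97, and Sema3g has only replicate 3 above the solid line.

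Of the 6 other class 3 semaphorins, all of them secreted, 5 were below and 1 neither. Sema3a, which repels axons and endothelial cells through neuropilin 1, was at 3.20, 3.13 and 3.20, and Sema3e, the ligand of PlexinD1, at 3.30 on each array. With Sema3b, Sema3c and Sema3d these genes were at means between 3.18 and 5.63. Sema3g, known from arterial endothelium and podocytes, had 6.07, 7.18 and 6.07. Only replicate 3 was above the level, and the gene was called neither (6.44 ± 0.64, adjusted p = 0.529). Without replicate 3 it was called below (adjusted p = 0.0266, range over the fits at this level 0.0266 to 0.961). Among the podocyte genes, Podxl, which endothelium also expresses, had 9.81, 9.84 and 9.95, highest on replicate 5. Synpo had 5.05, 5.11 and 5.05, highest on replicate 3, and Nphs1, Wt1 and Ptpro were each identical on all 3 arrays. The part of podocytes in the value of Sema3g was not tested.

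All 6 class 4 semaphorins were called below, at means between 3.93 and 5.39, and 73.8% of all genes were below. They include Sema4d, an activator of PlexinB1, at 5.40, 5.37 and 5.40, and Sema4a and Sema4c at 4.45 and 5.21 on each array. Sema5b, the relative of Sema5a, was also below, at 5.16, 5.19 and 5.19.

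Of the 9 plexins, the receptors of semaphorins, 2 were called above, 5 below and 2 neither. Over all genes, 14.9% were above and 73.8% below. Plxnd1, the endothelial receptor of Sema3e, was at 7.38 on each array (0.74 above the level, interval 0.41 to 1.07, adjusted p = 0.00421). Plxna2, a receptor of Sema6a, was at 7.003 on each array (0.36 above, interval 0.03 to 0.69, adjusted p = 0.0432). Both had identical values on all 3 arrays, so their error comes from the spread of other probe sets. Where such values were counted as 1 array, neither was called (adjusted p = 0.14 for Plxnd1 and 0.36 for Plxna2). The range over the fits at this level was 6.01e-07 to 0.14 for Plxnd1 and 3.39e-06 to 0.36 for Plxna2. The lowest of these came from the variance prior taken from all probe sets, most of which hold identical values. That prior has an SD of only 0.00634.

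The other A plexins were divided. Plxna1, which Sema6d uses, was at 6.40 on each array and was called neither (adjusted p = 0.114). It was called below with the variance prior taken from all probe sets (adjusted p = 8.32e-06, range over the fits at this level 8.32e-06 to 0.503). With its SD of 0.00634 that prior makes calls at the level itself, so this call is weak. Plxna4, a receptor of Sema3a and Sema6a, had 6.58, 6.35 and 6.91 and was also called neither (adjusted p = 0.866), with replicate 5 above the level and the others under it. Plxna3 was below, at 4.42. The B plexins, receptors of class 4 semaphorins, were all below, with Plxnb1 at 5.20, Plxnb2 at 5.39 and Plxnb3 at 4.26 on each array. Plxnc1, the receptor of Sema7a, had 4.63, 4.55 and 4.66 and was below as well. So were the plexin domain genes Plxdc1, first described in tumour endothelium, at 4.60, and Plxdc2 at 4.49 ± 0.03.

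**Figure D3:**
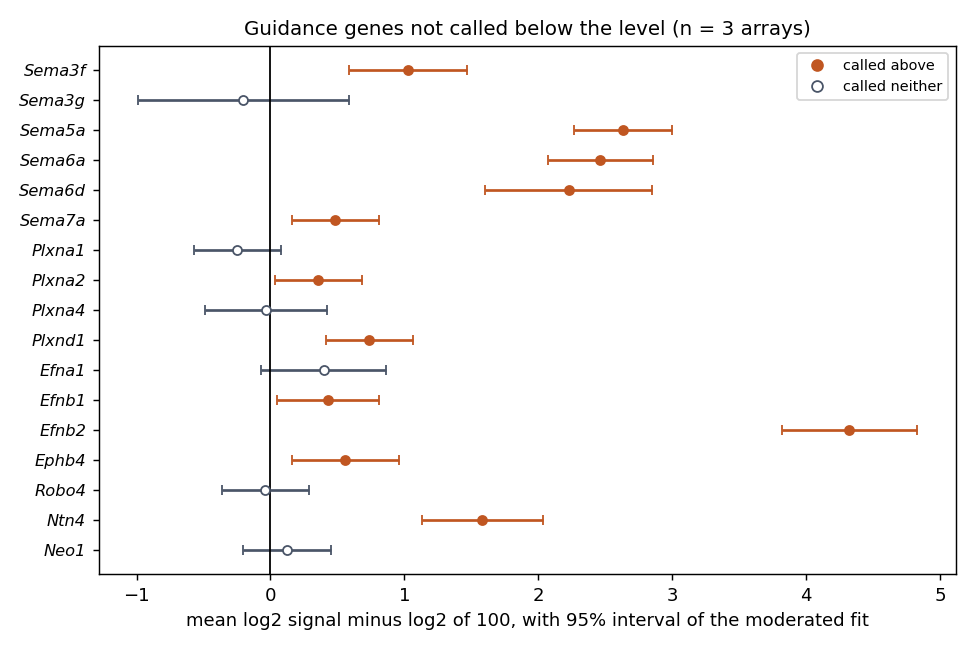
Mean log2 signal minus log2 of 100 (horizontal axis) for the 17 guidance genes that were not called below the level, with the 95% interval of the moderated fit over 3 arrays. Filled circles were called above and open circles neither; Efnb2 lies 4.32 above the level, while the intervals of Plxna2 and Efnb1 start at 0.03 and 0.05.

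Of the 3 ephrins of the B class, 2 were called above the level, and 14.9% of all genes were. Efnb2, the transmembrane ligand known from arterial endothelium, had 10.73, 10.82 and 11.35 (4.32 above the level, interval 3.82 to 4.82, adjusted p = 7.64e-05). Replicate 5 was highest, and no array came near the level. Efnb1, its close relative, had 6.98, 6.98 and 7.28 (0.43 above, adjusted p = 0.0392). The interval of 0.05 to 0.81 began just above the level, and the call was lost without any 1 of the 3 replicates (adjusted p between 0.0595 and 0.218, range over the fits at this level 0.0273 to 0.218). Efnb3 was below, at 5.19 on each array.

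Ephrins of the A class, which are tethered by a lipid anchor, were not called above. Of the 5 genes, 4 were below and 1 neither, and 14.9% of all genes were above and 73.8% below. Efna1, the A ephrin best known from endothelium, had 7.16, 6.70 and 7.25 (7.04 ± 0.29, adjusted p = 0.0854). All 3 arrays were over the level and replicate 3 lay closest to it. Without replicate 3 it was called above (adjusted p = 0.0285, range over the fits at this level 0.0285 to 0.325). Efna3 and Efna4 follow Efna1 directly on chromosome 3 and were both below, at 4.64 ± 0.16 and at 4.61 on each array. Efna2 and Efna5 were below at 3.81 ± 0.05 and 4.02.

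Of the 13 Eph receptors, 1 was called above the level and 12 below, where 14.9% and 73.8% of all genes were. The one above was Ephb4, the receptor of ephrin-B2 known from venous endothelium. It had 7.32, 6.97 and 7.32 (0.56 above the level, interval 0.16 to 0.96, adjusted p = 0.021). Every array was above the level, but without replicate 1 or replicate 5 it was not called (adjusted p = 0.122 and 0.116, range over the fits at this level 0.0167 to 0.122). The 9 EphA genes were at means between 3.21 and 5.98. Among them, Epha2, which ephrin-A1 binds, had 5.21, 5.32 and 5.32, and Epha4, which binds ephrins of both classes, had 5.80, 5.80 and 5.65. Ephb1, Ephb3 and Ephb6 were below, at 4.80, 4.17 and 4.95 on each array. Epha10 and Ephb1 have 2 probe sets each, and both probe sets of each were below.

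Promoter sequence is shown for the pair Efnb2 and Ephb4, for Sema5a and for Robo4, which is described further on, because sites of ETS factors, which bind the core GGAA, came up in the study's enrichment analysis of genes elevated in embryonic endothelium. The arrays do not measure promoters. Each window runs from 250 bases before to 50 bases after a RefSeq start, in GRCm38.p6, and is written 5′ to 3′ on the strand of the gene. Capitals mark GGAA on either strand (GGAA or TTCC).
Sema5a, chr15:32244563-32244862, plus strand: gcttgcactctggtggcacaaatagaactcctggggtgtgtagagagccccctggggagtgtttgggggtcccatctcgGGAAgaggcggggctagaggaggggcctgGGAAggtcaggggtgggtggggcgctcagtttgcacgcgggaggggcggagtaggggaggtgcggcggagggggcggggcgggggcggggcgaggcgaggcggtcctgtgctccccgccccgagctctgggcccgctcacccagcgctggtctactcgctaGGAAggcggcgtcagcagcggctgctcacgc
Efnb2, chr8:8661193-8661492, minus strand: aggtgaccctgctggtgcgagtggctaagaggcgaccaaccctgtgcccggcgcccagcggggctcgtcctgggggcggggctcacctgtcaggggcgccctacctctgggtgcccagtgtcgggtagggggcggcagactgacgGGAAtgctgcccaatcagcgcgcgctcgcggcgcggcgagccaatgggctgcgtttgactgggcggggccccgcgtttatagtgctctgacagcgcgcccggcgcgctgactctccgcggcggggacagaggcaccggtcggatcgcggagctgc
Ephb4, chr5:137349859-137350158, plus strand: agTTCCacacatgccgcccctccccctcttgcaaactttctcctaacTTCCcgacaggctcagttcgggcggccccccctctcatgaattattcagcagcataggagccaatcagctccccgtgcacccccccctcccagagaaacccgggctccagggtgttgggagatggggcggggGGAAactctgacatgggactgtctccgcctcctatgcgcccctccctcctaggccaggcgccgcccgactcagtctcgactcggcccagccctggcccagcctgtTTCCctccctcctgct
Robo4, chr9:37401722-37402021, plus strand: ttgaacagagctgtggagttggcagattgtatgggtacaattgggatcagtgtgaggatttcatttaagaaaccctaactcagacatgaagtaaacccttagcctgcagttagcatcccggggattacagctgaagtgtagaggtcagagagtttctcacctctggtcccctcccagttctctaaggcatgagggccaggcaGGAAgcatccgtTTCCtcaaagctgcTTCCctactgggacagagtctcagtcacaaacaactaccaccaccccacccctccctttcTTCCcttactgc
The window of Efnb2 holds 1 such core, that of Sema5a 3, and those of Ephb4 and Robo4 4 each. The core is common, since 96.0% of all 32851 windows in the RefSeq table hold it. The longer form CAGGAA (or TTCCTG on the other strand), which contains the core, was in the window of Robo4 but not in the other 3. The study had already listed Robo4 among the genes with a conserved ETS2 site upstream. The longer form was in 3 of the 10 windows of genes called above the level (9 of the 11 genes have a window). It was in 17 of the 77 windows of the guidance genes and in 30.6% of all windows. Of the 72 genes, 59 have a window in the table.

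Slits and their receptors were not called above the level. Over all genes, 14.9% were above and 73.8% below. Slit1 was at 5.19, Slit2 at 3.87 and Slit3 at 4.83 on each array, and all 3 were below. The receptors that bind them in axons, Robo1 at 3.94 and Robo2 at 4.42 on each array, were below too, and so was Robo3 at 4.44. Robo4, the Robo gene of endothelium, was at 6.61 on each array and was called neither (adjusted p = 0.773, interval of the distance -0.36 to 0.29). With the variance prior taken from all probe sets it was called below (adjusted p = 0.000728, range over the fits at this level 0.000728 to 0.914). That prior, with an SD of 0.00634, makes calls at the level itself, so the call below is weak. Robo3 and Robo4 are next to each other on chromosome 9.

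Of the 5 netrins, only Ntn4 was called above and 4 were below, where 14.9% and 73.8% of all genes were. Ntn4, a netrin of basement membranes, had 8.39, 7.91 and 8.39 (1.58 above the level, interval 1.13 to 2.03, adjusted p = 0.00092), with replicate 3 lowest and all arrays over the level. Ntn1, the netrin that guides axons and binds Dcc and Unc5b, had 5.75, 5.87 and 5.87 and was below. Ntn3, Ntn5 and Ntng1 were below at 4.72, 4.22 and 5.83 on each array, while the second probe set of Ntng1 was at 4.06.

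Of the 6 receptors of netrins and RGMs, 5 were called below the level and 1 neither, and 73.8% of all genes were below. Neo1, the receptor that both kinds of ligand share, was at 6.77 on each array and was called neither (adjusted p = 0.371). It was called above with the variance prior taken from all probe sets (adjusted p = 4.4e-05, range over the fits at this level 4.4e-05 to 0.725). That call is weak too, since the SD of this prior is 0.00634. Unc5b, the Unc5 receptor known from endothelium, had 5.83, 5.49 and 5.83 and was called below. Unc5a, Unc5c and Unc5d were at 4.20, 4.61 and 5.06, and Dcc was at 4.10 on each array. The ligands Rgma, at 5.66 ± 0.03, and Rgmb, at 5.72 on each array, were below.

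Ligands and receptors were set side by side for 29 pairs known to bind. The pairs were written down with these results in view and share genes, so their counts are a description. In 2 pairs both members were called above, Efnb2 with Ephb4 and Sema6a with Plxna2. In 5 pairs the ligand was above and the receptor below, among them Sema5a with Plxnb3, Sema7a with Plxnc1 and Efnb2 with Epha4. In 4 more the ligand was above and the receptor neither, as for Sema6d with Plxna1 and Ntn4 with Neo1. The reverse, a receptor above with its ligand below, was found in 2 pairs, Sema3c and Sema3e with Plxnd1. In 8 pairs both were below, including Slit2 with Robo1, Sema4d with Plxnb1 and Ntn1 with Unc5b. In 6 the ligand was below and the receptor neither, as for Sema3a with Plxna1 and Rgma with Neo1. In the last 2, Efna1 was called neither with Epha2 below, and Sema3g and Plxna4 were both called neither.

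Between arrays, Sema3g was the 1 gene of 72 with more than a 2-fold range over the arrays (1.10 on the log2 scale), against 5.07% of all genes. Of the 72, 43 had an identical value on all 3 arrays, against 55.2% of all genes, and such values say nothing of the spread between kidneys. Among the 11 genes called above, 9 varied, and 6 of these were lowest on replicate 3 (Sema3f, Sema5a, Sema6a, Sema6d, Ephb4 and Ntn4). Of all varying genes called above, 37.5% were lowest there. The summed signal of the endothelial markers was also lowest on replicate 3, at 10805. Emcn, Cdh5, Tek, Flt1, Kdr and Pecam1 were each lowest there. Eng (8.91, 9.31 and 9.96) and Erg (8.49, 8.64 and 8.65) were lowest on replicate 1 instead. The part of the endothelial content of replicate 3 in the values of the guidance genes was not tested. Median-centring the arrays left 9 genes called above, without Efnb1 and Plxna2.

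Of 29 measured co-receptors and other partners of these families, 21 were called below, 4 neither and 4 above, close to the 73.8% below and 14.9% above over all genes. Their median level was 5.04, against 5.02 over all genes. Nrp1, the co-receptor of Sema3a, had 11.43, 10.38 and 11.81 (adjusted p = 0.000269), with replicate 3 lowest. Nrp2, the co-receptor of Sema3f, had 6.95, 6.62 and 6.95 and was called neither (adjusted p = 0.252). Itgb1, the integrin chain through which Sema7a can act, was above at 10.81 ± 0.08, as were Bmpr2, a BMP receptor, at 11.06 ± 0.34 and Adam10, a protease that sheds ephrins, at 8.60 ± 0.37. Met, a partner of PlexinB1, was below at 3.62 ± 0.85.

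Cytoplasmic effectors were above the level in 17 of 52 cases, with 28 below and 7 neither. Their median level was 6.07, and 14.9% of all genes were called above. The small GTPases Rhoa, Cdc42 and Rac1, which act in many pathways beside these, were at 11.57 ± 0.03, 11.31 ± 0.30 and 10.42 ± 0.07. Rras, a target of plexins, was at 8.81 on each array and Arhgef12, whose product binds B plexins, at 8.79 ± 0.23. Sdcbp, the syntenin gene whose product binds B ephrins, was at 10.19 ± 0.46, and Rasa1 and Nck1, whose products bind Eph receptors, at 9.36 ± 0.27 and 8.79 ± 0.62. The actin factor Cfl1 was at 9.42 ± 0.13 and the kinase gene Fyn at 8.61 ± 0.23. Of the collapsin response mediators, Dpysl2 was above at 7.41 ± 0.02, while Crmp1 and Dpysl3 were below, at 3.21 and 5.33 on each array. Of the slit-Robo effectors, Srgap2 was at 6.99 on each array (above, adjusted p = 0.0473, from 3 identical values close to the level), Srgap1 had 6.44, 6.26 and 6.44 (neither, adjusted p = 0.109) and Srgap3 was below, at 5.33 on each array.

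The level set how many guidance genes were called. The 95th percentile of the means of 1023 olfactory receptor probe sets, genes not known to be used in endothelium, was 28.9 (4.85 on the log2 scale). Against it, 31 of the 72 genes were called above and 23 below, and over all genes 43.9% were called above and 36.4% below. The genes above then included Robo4, Neo1, Unc5b, Ntn1, Sema3g and 5 EphA genes (Epha2, Epha4, Epha6, Epha8 and Epha10), so a call below 100 does not show that a gene is silent. Against 200, Sema5a, Sema6a, Sema6d, Efnb2 and Ntn4 were called above. Sema3f, Sema5a, Sema6a, Sema6d, Efnb2 and Ntn4 were called above in each of the 10 fits made at the level of 100.

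**Figure D4:**
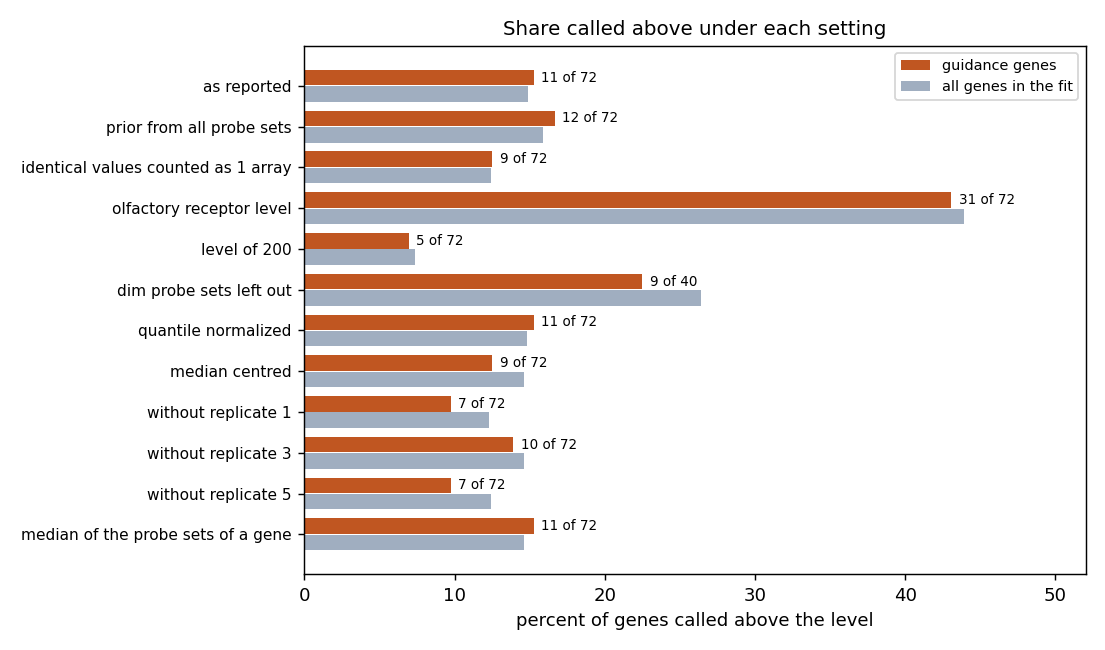
Percent of guidance genes (orange) and of all genes in the fit (grey) called above the level under each setting, with the number of guidance genes beside each bar. The share of guidance genes runs from 6.94% with a level of 200 to 43.1% with the olfactory receptor level, and the share of all genes from 7.39% to 43.9%.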

How the data were processed

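RNA of the sorted cells went through 1 round of amplification (NuGEN WT-Ovation Pico) and was measured on Affymetrix Mouse Gene ST arrays. The deposited values are log2 signals per probe set. Affymetrix Expression Console is the tool in the submitters' processing notes (version not given), and the methods of the study describe RMA. Neither the arrays that shared a normalization nor the scale of the study's filter of 100, which was set on raw values, can be read from the sources at hand, so that number was carried over to the deposited scale as its log2.

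Gene names came from the annotation of the array platform. Of 35557 probe sets, 21789 name 1 gene and were tested, 1621 name several and 12147 are not named there. All 72 member symbols matched RefSeq (GRCm38.p6) by Entrez identifier. A gene with several probe sets was counted by the one with the highest mean.

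limma 3.58.1 in R 4.3.3 was used across all 21789 probe sets with an intercept only, and each mean was tested against log2 of 100 on both sides. P-values were adjusted by the Benjamini-Hochberg method and called under 0.05. Because the 3 values were the same in 54.1% of probe sets, the variance prior was taken from the 4406 whose 3 values all differ (its SD was 0.288, on 2.03 degrees of freedom). An SD of 0 was not read as an absence of error. The fit was checked on made-up data with known distances from the level, with the observed share of identical values. It then called probe sets placed at the level itself more often than the threshold allows, so calls close to the level are weak. Identical values were placed at random over all signals in the made-up data. In the arrays they were held by 717 of the 2963 genes called above and by 55.2% of all genes. The size of the excess need not carry over to the arrays. The alternatives were the prior from all probe sets, an olfactory receptor level, a level of 200, dim probe sets left out, quantile normalization, median centring, each array left out, the median of a gene's probe sets and, added after seeing the data, identical values counted as 1 array.

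The members and lists were chosen with earlier results of these data known. Genes called above or neither, and those ranging over 2-fold, are given per array, others by range or as examples. Of the partner and effector lists, the 10 genes called above with the largest distance are named in full where they exist, and others as examples chosen after their values were seen. Promoter windows are those of RefSeq, read as given.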

Additional observations from a re-analysis of the deposited data

How the results depend on the processing

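The number of guidance genes called above the level was 11, and it was 12 with the prior from all probe sets, 9 with identical values counted as 1 array, with dim probe sets left out or with median centring, and 11 with quantile normalization or the median of a gene's probe sets. It was 31 at the olfactory receptor level, 5 at 200 and 7 to 10 without 1 replicate. Over all genes, the share above was 14.9%, and 12.3% to 14.6% without 1 replicate. The number below was 55, and it was 50 with identical values counted as 1 array, 57 with the prior from all probe sets and 65 at 200. It was 23 at the olfactory receptor level and 23 with dim probe sets left out, where only 40 genes were in the fit. Without 1 replicate it was 55 to 56. For partners, the olfactory receptor level gave 13 above and 13 below, and leaving out dim probe sets 7 below, with 15 genes in the fit. For effectors the olfactory receptor level gave 42 above and 1 below. With identical values counted as 1 array, 19 effectors were below instead of 28. The number of guidance genes ranging over 2-fold was 1, and 0 to 1 without 1 replicate.

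Directions turned mainly with the level. A change of level shifts every distance by the same amount, so genes within that shift had to change sign. At 200, the distance was -0.60 for Efna1, -0.57 for Efnb1, -0.44 for Ephb4, -0.88 for Neo1, -0.64 for Plxna2, -0.26 for Plxnd1 and -0.51 for Sema7a. At the olfactory receptor level it was 1.54 for Plxna1, 1.76 for Plxna4, 1.75 for Robo4 and 1.59 for Sema3g. Plxna4 was between -0.18 and 0.10 without 1 replicate, with the highest value without replicate 3. Of the single-gene values under the alternatives, 12 turned, 17 lost the call, 11 gained one and 147 did neither. No paired analysis was possible because all 3 arrays form 1 group.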

Other observations

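The deposited values take few distinct numbers at low signal. On replicate 1, the 35557 probe sets hold 17388 distinct values, and one value is shared by 307 probe sets. Of the 72 guidance genes, 35 had the same 3 values as at least 1 other probe set (48.6% of all genes did), among them 32 of the 55 called below and 2 of the 11 called above, Plxna2 and Plxnd1. The same held for 61.7% of all genes called below and 8.71% of all genes called above. Ephb3 had 4.17 on each array as 1 of 258 probe sets on that number. Members of different families fell on 1 number: Sema3c and Efna5 at 4.02, Plxna3 and Robo2 at 4.42, Efnb3 and Slit1 at 5.19, and Sema6c and Ephb6 at 4.95, each on all 3 arrays. Genes on 1 number have no order among themselves.

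A probe set that names both Ntng2 and another gene was at 5.49 on each array. Of guidance genes near each other, Sema3b and Sema3f lie on chromosome 9 with 3 genes between them, and the first was called below and the second above. Sema3d and Sema3a are next to each other on chromosome 5, Robo1 and Robo2 on chromosome 16, and all 4 were called below.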
